A study of Homo sapiens with 64 samples.

Results

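Plasminogen activators and their serpins are described here through 6 genes in colorectal cancer (CRC) spheroid cells, chosen by name among the 54127 genes of the count tables. They are *PLAU*, *PLAUR* and *PLAT*, which encode the urokinase plasminogen activator, its receptor and the tissue plasminogen activator, and *SERPINE2*, *SERPINB2* and *SERPINB5*, which encode protease nexin-1, plasminogen activator inhibitor-2 and maspin. All 6 Ensembl identifiers were found. RNA sequencing covered 64 samples of 6 CRC cell lines grown as spheroids without adhesion, with EGF and bFGF. Per the study's methods, the medium was serum-free RPMI for HCT15 and serum-free DMEM/F12 for the other lines. For 48 samples, cells were labeled with CFSE, a dye that dividing cells dilute, and sorted 6 days later into label-retaining cells (LRCs), which keep the dye, and the bulk of dye-diluted cells (non-LRCs). There were 4 samples of each population from HT55 and SW948 (colorectal cancer subtype CCS1), RKO and SW48 (CCS2), and DLD1 and HCT15 (CCS3), so LRCs and non-LRCs of a line shared the dye, the culture and the sort. The other 16 samples were unsorted controls labelled DLD1, with CFSE or with the DMSO vehicle in its place (unlabeled), on day 1 and on a later day, 4 samples per group. The sample labels call the later day day 5, and the description of the study calls it day 6.

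Urokinase and tissue plasminogen activator are serine proteases that cut plasminogen into plasmin, a broad protease that degrades fibrin and extracellular matrix. Urokinase does this on the cell surface when it is held by its receptor, a protein tethered to the membrane by a lipid anchor, whereas tissue plasminogen activator acts mainly on fibrin. Protease nexin-1 and plasminogen activator inhibitor-2 inhibit these activators. Maspin belongs to the same clade B of serpins as plasminogen activator inhibitor-2 but is not an inhibitor of proteases in the classical sense. In CRC, the urokinase system is known for its part in invasion.

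In the deposited counts, 12237225 to 20913455 reads per sample lay on genes. Levels are given as CPM, the counts of a gene relative to the library total, scaled by edgeR's TMM method over the 64 samples. The epithelial list of 8 markers had 4 to 8 genes with a mean of at least 1 CPM in each group, and RKO had the fewest, with *EPCAM* at 16.2 to 17.8 CPM. Summed over 6 genes, fibroblast markers reached at most 14.3 CPM in a sorted sample, and the T cell gene *CD3E* had a mean of 0 CPM in all 16 groups. Other leukocyte markers were present, with group means of *LYZ* of 1339 and 1375 CPM in SW948, of *CD68* of 1336 and 1085 CPM in RKO and of the pan-leukocyte gene *PTPRC* of 14.1 and 15.5 CPM in SW48, in LRCs and non-LRCs. Their part in the results was not tested. In these bulk libraries, fewer cells that express a gene and less RNA of it per cell cannot be told apart.

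Before the genes are described, a conflict between samples and their labels has to be given. Over 16899 expressed genes, all 48 sorted samples had their highest correlation of log2(CPM + 1) with the mean non-LRC profile of the line on their own label. None of the 16 controls labelled DLD1 did, since all 16 correlated best with the sorted HCT15 samples. Their Pearson's r was 0.95 to 0.995 with sorted HCT15 non-LRCs and 0.926 to 0.965 with sorted DLD1 non-LRCs. The mean of the unlabeled later-day controls differed from that of HCT15 non-LRCs by more than 2 on the log2 scale in 7 genes, and from that of DLD1 non-LRCs in 368 genes. Sorted DLD1 and HCT15 non-LRCs differed that far in 365 genes. *PLAT* shows the same contrast, with 8.17 to 20.2 CPM in the controls, 13.9 to 20.3 CPM in sorted HCT15 and 0.133 to 0.713 CPM in sorted DLD1. Sorted DLD1 and sorted HCT15 samples shared the dye, the sort and the time after labeling, but not the medium. Line and medium cannot be told apart where HCT15 is set against another line. The source of the conflict was not tested. The names DLD1 and HCT15 are therefore used below as the labels give them, and the controls are set beside no sorted sample in a test.

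**Figure D1:**
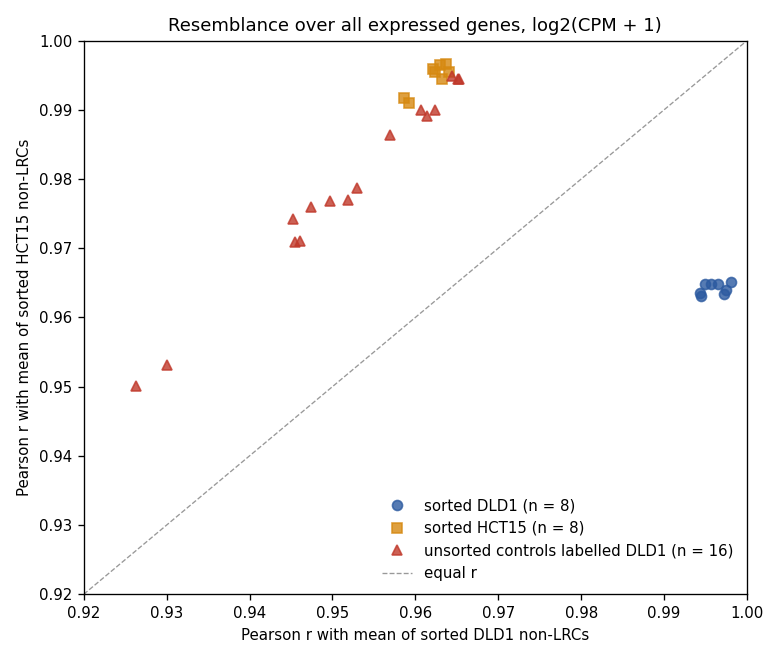
Each point is 1 sample, with Pearson's r over 16899 genes (log2(CPM + 1)) to the mean of the sorted DLD1 non-LRCs on the x axis and to the mean of the sorted HCT15 non-LRCs on the y axis, leaving a sample out of its own mean. The 16 controls labelled DLD1 (triangles) lie above the line of equal r with the 8 sorted HCT15 samples (squares), and the 8 sorted DLD1 samples (circles) lie below it.

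Promoters of 5 of the 6 members were searched, since that of *PLAT* was not analysed here. Sequence is shown for the 3 genes whose 250 bases before the transcription start match the letters searched for an AP-1 site. That site is the motif bound by FOS and JUN proteins and known for control of urokinase system genes. The sequences are those of RefSeq on GRCh38.p14, given 5′ to 3′ on the strand of the gene. The AP-1 site was searched loosely as TGANTCA, with any base in the middle, which is G in *PLAUR* and A in *SERPINB2* and *SERPINB5*. The GC box was searched as GGGCGG, and the TATA box by its core TATAAA. Both strands were searched, and matches stand in capitals. These letters overlap in no place other than 1 shared base of the adjacent GC boxes of *SERPINB5*. Of 35116 promoter windows of this length, 6.57% held the AP-1 letters, 42.6% the GC box and 10.7% the TATA box. *PLAUR* lies at chr19:43670170-43670419 on the minus strand, *SERPINB2* at chr18:63887455-63887704 and *SERPINB5* at chr18:63476708-63476957, both on the plus strand.
PLAUR: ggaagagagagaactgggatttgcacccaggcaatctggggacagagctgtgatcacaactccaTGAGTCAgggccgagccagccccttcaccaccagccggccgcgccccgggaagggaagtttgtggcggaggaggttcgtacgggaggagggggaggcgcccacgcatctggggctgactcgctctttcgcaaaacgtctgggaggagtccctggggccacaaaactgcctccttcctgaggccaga
SERPINB2: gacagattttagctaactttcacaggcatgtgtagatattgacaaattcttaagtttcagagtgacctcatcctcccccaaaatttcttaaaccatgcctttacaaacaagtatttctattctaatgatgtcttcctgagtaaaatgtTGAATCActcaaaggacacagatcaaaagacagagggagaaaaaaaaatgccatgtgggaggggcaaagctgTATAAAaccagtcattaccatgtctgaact
SERPINB5: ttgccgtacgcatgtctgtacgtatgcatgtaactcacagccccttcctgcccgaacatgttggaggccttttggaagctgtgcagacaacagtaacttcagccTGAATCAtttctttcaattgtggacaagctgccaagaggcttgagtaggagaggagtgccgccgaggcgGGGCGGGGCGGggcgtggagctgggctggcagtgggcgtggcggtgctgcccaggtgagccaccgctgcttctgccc
The AP-1 letters begin 186 bases before the start in *PLAUR*, 102 bases before it in *SERPINB2* and 146 bases before it in *SERPINB5*. *SERPINB2* also has a TATA box from 30 bases before the start, and *SERPINB5* has 2 GC boxes. *PLAU* has 2 annotated starts, of which the second has 3 GC boxes within 66 bases, and *SERPINE2* has 2 starts with 1 and 2 GC boxes. These matches describe letters in the sequence and do not show that a factor was bound.

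On hg19, the build of the count tables, the genes lie at chr10:75668935-75677254 (*PLAU*, plus strand), chr19:44150247-44174699 (*PLAUR*, minus strand), chr8:42032236-42065227 (*PLAT*, minus strand), chr2:224839762-224904035 (*SERPINE2*, minus strand), chr18:61538926-61571122 (*SERPINB2*, plus strand) and chr18:61144191-61172318 (*SERPINB5*, plus strand). Counts cover whole genes, so exons and UTRs are not separated. The exons of *PLAU* share 915 bases with *C10orf55*, a noncoding gene on the other strand, which had 373 counts over all 64 samples. *SERPINB2* shares 547 exon bases with another gene on its strand, which was not analysed here. Whether the counting used strand is not given in the sources used here.

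Between lines, the activators and the serpins differed over wide ranges. In non-LRCs, the mean level of *PLAU* was 195 times higher in RKO than in HT55, that of *SERPINE2* 377 times higher in HT55 than in RKO, and that of *PLAUR* 10.1 times higher in RKO than in DLD1. A test of any difference between the 6 lines in non-LRCs (edgeR quasi-likelihood F test) called all 5 members that passed the count minimum, with adjusted p-values from 4.44e-13 for *PLAUR* to 8.67e-21 for *PLAT*. It called 98.3% of the 15779 genes tested, so a difference between lines sets the members apart from few genes.

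**Figure D2:**
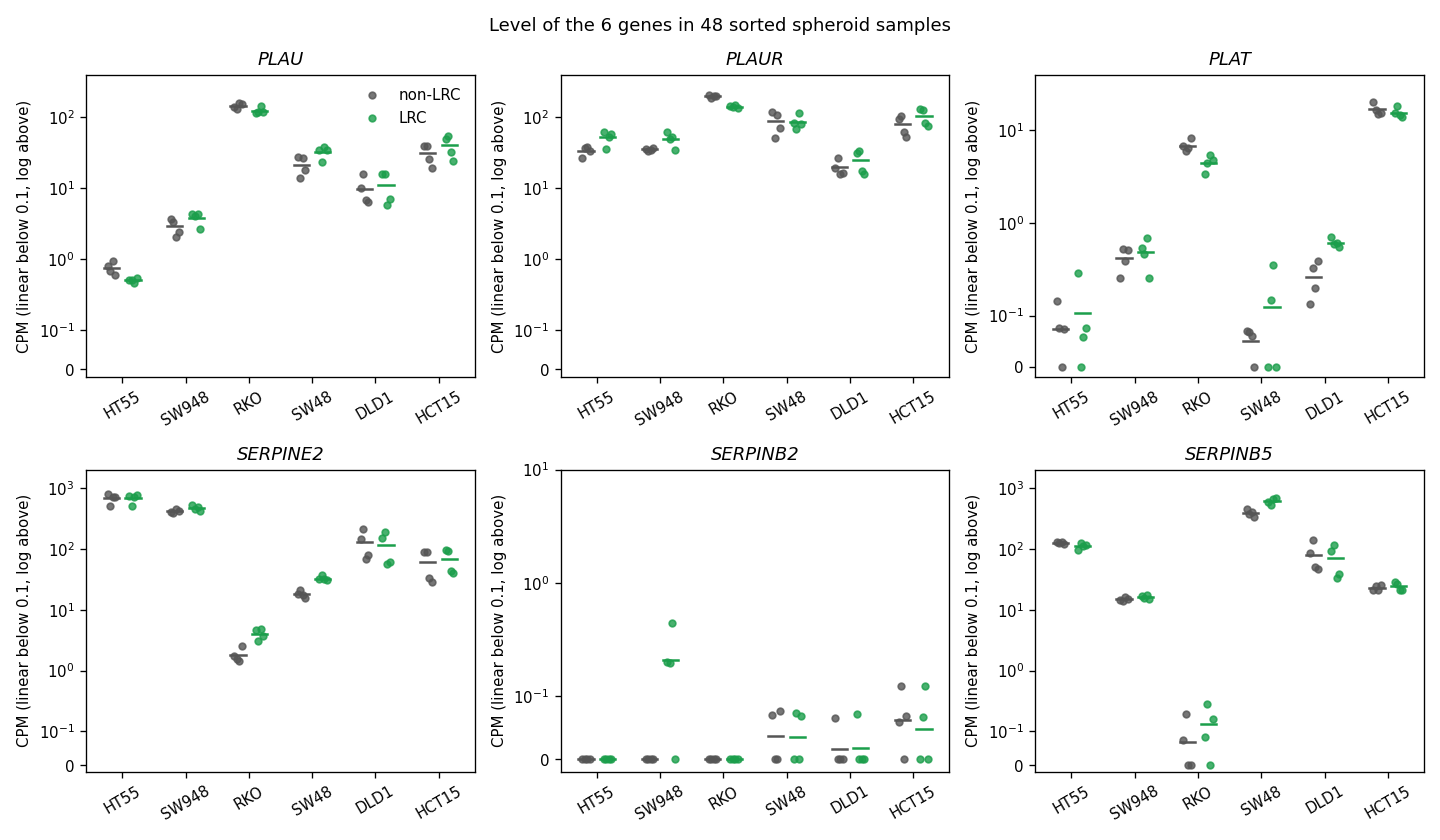
CPM of each gene (y axis, linear below 0.1 and logarithmic above) in 6 cell lines (x axis), where each point is 1 of 4 samples and each short line the group mean, in gray for non-LRCs and green for LRCs. *PLAUR* was at 15.8 CPM or more in every sorted sample, whereas *PLAT*, *SERPINB5* and *SERPINB2* fell to 0 CPM in samples of some lines.

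*PLAU*, the urokinase gene, was highest in RKO non-LRCs, at 139, 133, 160 and 153 CPM in the 4 samples. HCT15 followed with 39.1, 39.7, 25.7 and 19.6 CPM, and SW48 with 27.4, 14.2, 26.8 and 18.3 CPM. The ranges of HCT15 and SW48 overlapped, and so did those of SW48 and DLD1, where it had 6.41 to 15.8 CPM. SW948 had 2.07 to 3.75 CPM and HT55 had 0.591 to 0.926 CPM, and these 2 lines lay apart from each other and from the others. *PLAUR*, the receptor gene, had 203 or more counts in each of the 64 samples. In non-LRCs it had 189 to 204 CPM in RKO, 50.7 to 120 CPM in SW48 and 53.1 to 106 CPM in HCT15, and the last 2 overlapped. SW948 (33.7 to 36.7 CPM) and HT55 (27.2 to 37.7 CPM) also overlapped, and DLD1 was lowest with 15.8 to 26.9 CPM. *PLAT*, the gene of the tissue activator, had 14.9 to 20.3 CPM in HCT15 non-LRCs and 6.02 to 8.26 CPM in RKO, and the ranges were apart. It had at most 0.526 CPM in any non-LRC sample of the other 4 lines, whose neighbors in the order overlapped.

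*SERPINE2*, the gene of protease nexin-1, had 508 to 799 CPM in HT55 non-LRCs and 381 to 449 CPM in SW948, the 2 CCS1 lines. DLD1 followed with 147, 214, 67.0 and 79.2 CPM and HCT15 with 90.1, 89.1, 33.1 and 28.6 CPM, so that their ranges overlapped. SW48 had 15.8 to 20.7 CPM and RKO 1.41 to 2.57 CPM. Lines low in *PLAU* were thus high in *SERPINE2*, and over the 48 sorted samples the 2 genes had a Pearson's r of -0.90 on log2 CPM, against 0.71 for *PLAU* and *PLAUR*. These samples are 8 from each of 6 lines, so such values follow the line means and are given as a description. *SERPINB5*, the maspin gene, was highest in SW48 non-LRCs, at 443, 375, 398 and 333 CPM. HT55 (122 to 129 CPM) and DLD1 (47.0 to 139 CPM) overlapped, and HCT15 (20.7 to 25.7 CPM) and SW948 (14.05 to 16.03 CPM) were apart. In RKO it was at most 0.194 CPM, with 4 counts over the 4 non-LRC samples. *SERPINB2*, the gene of plasminogen activator inhibitor-2, had 84 counts in all 64 samples together and none in 45 of them. HT55 and RKO had 0 counts in all 16 sorted samples, and a count of 0 over the 4 HT55 non-LRC samples allows up to 3 counts, or 0.0562 CPM. It passed the count minimum in no comparison of sorted samples.

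Lines of the same subtype were also compared directly in non-LRCs. Between the CCS1 lines, *SERPINB5* was higher in HT55 than in SW948 by 3.10 ± 0.23 on the log2 scale (SE, adjusted p = 6.99e-12) and *SERPINE2* by 0.75 ± 0.30 (adjusted p = 0.0263). *PLAU* was lower by 1.91 ± 0.47 on the log2 scale, and *PLAUR* differed by -0.043 ± 0.22 (adjusted p = 0.872). *PLAT* was also called, at 4 counts over the HT55 samples, so no fold is given. In all 71.7% of genes were called in this comparison. *SERPINE2* was not called without replicate 1 or replicate 4, without TMM (0.50, adjusted p = 0.132) or with LRCs in place of non-LRCs (0.52, adjusted p = 0.0974). Between the CCS2 lines, where 69.8% of genes were called, all 5 members were. RKO was above SW48 by 2.75 ± 0.23 in *PLAU* (adjusted p = 7.68e-11) and by 1.17 ± 0.21 in *PLAUR* (adjusted p = 1.89e-05), and below it by a log2 fold change of -3.30 ± 0.44 in *SERPINE2* (adjusted p = 3.09e-07). *SERPINB5* and *PLAT* had 4 counts in RKO and 3 counts in SW48, respectively, and were called in opposite directions. Between the CCS3 lines, which also differed in medium, 49.4% of genes and again all 5 members were called. DLD1 was below HCT15 in *PLAT* (log2 fold change -5.97 ± 0.25), *PLAUR* (-2.00 ± 0.22) and *PLAU* (-1.65 ± 0.24), and above it in *SERPINB5* (1.82 ± 0.22) and *SERPINE2* (1.10 ± 0.31, adjusted p = 0.00438).

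Levels of different genes were compared per kilobase of the canonical transcript (RPKM). Among the 6 genes, *SERPINE2* led in non-LRCs of HT55, SW948 and DLD1, with 307 ± 55.7, 185 ± 12.9 and 57.05 ± 30.6 RPKM (SD, n = 4). *PLAUR* led in RKO with 145 ± 4.71 RPKM and in HCT15 with 58.2 ± 18.8 RPKM. *SERPINB5* led in SW48 with 150 ± 18 RPKM. The receptor gene was above the urokinase gene in all 6 lines, with 145 RPKM of *PLAUR* and 62.6 RPKM of *PLAU* in RKO, and 24.8 and 0.32 RPKM in HT55. With the union of all exons as the length, an alternative chosen after seeing the data, *PLAU* was above *PLAUR* in RKO (49.7 against 44.5 RPKM) and *SERPINB5* above *SERPINE2* in DLD1 (21.4 against 14.2 RPKM), and the leading gene of the other lines was the same.

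For each member that passed the count minimum, the 3 genes with the most similar pattern over the 48 sorted samples (highest Pearson's r of log2 CPM among 16603 genes) are named as a description. *PLAU* was most like *HOMER3* (r = 0.98), ENSG00000175898 (0.97) and *PIP4K2A* (0.97), and *PLAUR* most like *CALU* (0.91), *SPHK1* (0.89) and *DEGS1* (0.89). For *PLAT* these were *ERICH5* (0.95), *JSRP1* (0.93) and *MSI1* (0.93). *SERPINE2* was most like *SH3TC2* (0.98), *VDR* (0.97) and *TSPAN8* (0.97), and *SERPINB5* most like *GLDN* (0.98), *BMP4* (0.97) and *INAVA* (0.97).

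Whether the genes differ between cells that kept and cells that diluted the dye was asked by setting LRCs against non-LRCs within each line. In RKO, all 4 members that passed the count minimum were called, 3 lower and 1 higher in LRCs, in a line where 41.5% of 12731 genes were called. *PLAUR* had 143, 139, 149 and 137 CPM in RKO-LRCs and 204, 189, 198 and 201 CPM in non-LRCs, without overlap. It fell by 0.48 ± 0.064 on the log2 scale (SE, edgeR, adjusted p = 3.29e-05). *PLAT* had 3.38, 4.45, 5.41 and 4.80 CPM against 6.76, 6.02, 6.43 and 8.26 CPM, also without overlap, and fell by 0.60 ± 0.16 (adjusted p = 0.0074). *PLAU* had 117, 121, 143 and 118 CPM against 139, 133, 160 and 153 CPM, with overlapping ranges, and fell by 0.23 ± 0.082 (adjusted p = 0.0321). *SERPINE2* had 4.65, 3.08, 4.75 and 3.69 CPM against 1.73, 1.55, 1.41 and 2.57 CPM and rose by 1.12 ± 0.23 (adjusted p = 0.00109), at 18 to 70 counts per sample. *SERPINB5* had 0 to 5 counts per RKO sample and was left to the exact tests below. The share of reads on mitochondrial genes was 7.01% to 10.5% in RKO-LRCs and 4.47% to 6.57% in non-LRCs, and 8 cycling genes summed to 591 to 1093 CPM against 1259 to 1359 CPM. Their part in these differences was not tested. Without 1 of the LRC replicates 1, 2 and 4 or of the non-LRC replicates 3 and 4, *PLAU* was not called, and a fit of all 48 samples, in which the lines share an estimate of spread, called only *PLAT*.

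In SW48, *SERPINE2* and *SERPINB5* rose in LRCs, and *SERPINB2*, with 2 counts in each population, was left to the exact tests below. *SERPINE2* had 31.4, 36.5, 31.7 and 30.4 CPM in SW48-LRCs and 18.0, 20.7, 17.6 and 15.8 CPM in non-LRCs, without overlap, and rose by 0.86 ± 0.11 on the log2 scale (adjusted p = 0.00824). *SERPINB5* had 597, 522, 669 and 681 CPM against 443, 375, 398 and 333 CPM, also without overlap, and rose by 0.68 ± 0.12 (adjusted p = 0.0284). Only 0.796% of genes were called in SW48. Replicate numbers were read as pairs in HT55, SW48, DLD1 and HCT15, where same-numbered LRC and non-LRC samples deviated together. They were not read so in RKO and SW948, though the labels number both populations of every line alike. Weak correlation there does not show that samples were unpaired. In each of the 4 lines, some samples of different number deviated together as much as a same-numbered pair. In DLD1 and HCT15 these lay within replicates 1 and 2 or within replicates 3 and 4. With the replicate number as a block, 9.69% of genes were called in SW48, and *PLAU* was among them (0.63 ± 0.097, adjusted p = 0.00382 against 0.272 without the block). *PLAU* had 34.7, 23.2, 38.6 and 34.9 CPM in LRCs and 27.4, 14.2, 26.8 and 18.3 CPM in non-LRCs, higher in all 4 pairs. *PLAUR* had 69.1 to 116 CPM against 50.7 to 120 CPM, a difference of -0.0024 ± 0.25 (adjusted p = 0.998). Mitochondrial genes took 13.8% to 14.2% of reads in SW48-LRCs and 9.66% to 11.3% in non-LRCs. The 8 cycling genes summed to 503 to 1099 CPM in LRCs and 588 to 1639 CPM in non-LRCs. The part of either was not tested. All 8 fits without 1 sample called *SERPINE2*, whereas *SERPINB5* was not called without LRC replicate 1, 3 or 4 or non-LRC replicate 3 or 4. With all 48 samples in one fit, neither was called.

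**Figure D3:**
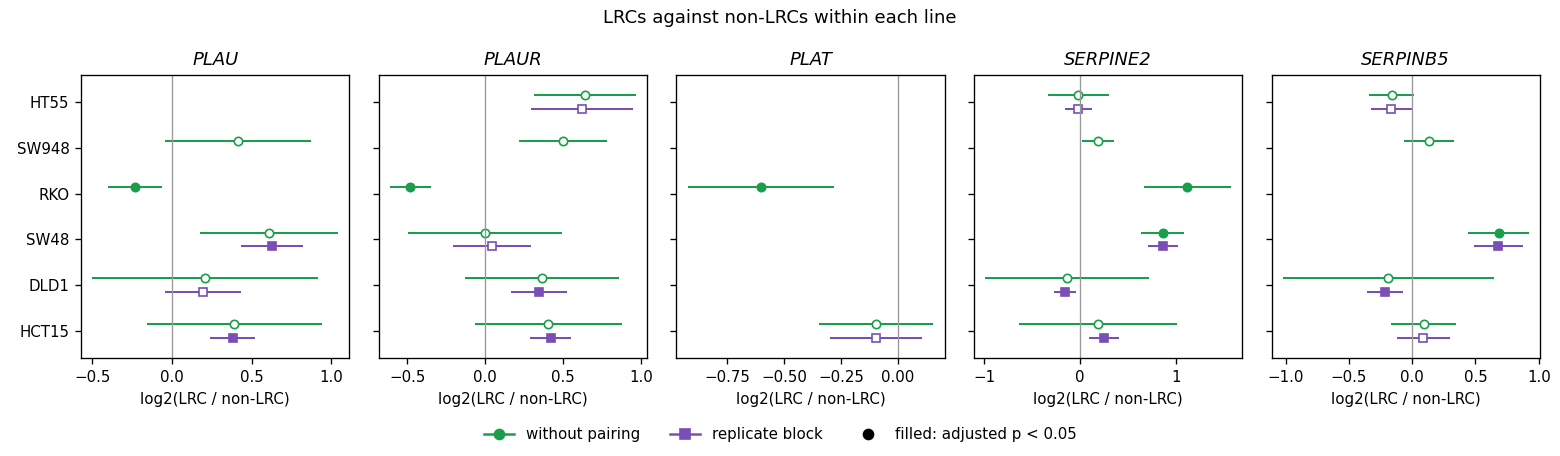
Log2 fold change of LRCs over non-LRCs (x axis) in each line (y axis) for the 5 genes that passed the count minimum in at least 1 line, without pairing (circles) and, in the 4 lines whose numbers pair, with a replicate block (squares). Lines span an approximate 95% interval, set from the SE by the normal distribution, which takes no account of the small number of samples. Such a line can exclude 0 where the edgeR test has an unadjusted p above 0.05. With the block in HT55, *SERPINB5* had an interval of -0.320 to -0.012 and an unadjusted edgeR p of 0.061. Filled symbols have an adjusted p-value under 0.05, so that *PLAUR* is filled below 0 in RKO and above 0 in DLD1 and HCT15 with the block.

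In the CCS3 lines, no member was called without the block, and the block changed this. The 8 cycling genes summed to 763 to 1119 CPM in DLD1-LRCs and 1271 to 1408 CPM in non-LRCs, without overlap, and to 1041 to 1911 CPM in HCT15-LRCs and 963 to 1698 CPM in non-LRCs, where the median was higher in LRCs. Their part in the differences below was not tested. DLD1 had 14.6% of genes called without the block and 33.8% with it. *PLAUR* in DLD1 had 31.9, 34.1, 17.7 and 15.96 CPM in LRCs and 19.6, 26.9, 15.8 and 16.6 CPM in non-LRCs, so that replicates 1 and 2 were higher than replicates 3 and 4 in both populations. With the block, *PLAUR* rose by 0.35 ± 0.089 (adjusted p = 0.00393 against 0.359). *SERPINE2* had 153, 187, 55.9 and 60.3 CPM against 147, 214, 67.0 and 79.2 CPM and fell by 0.16 ± 0.052 with the block (adjusted p = 0.02 against 0.865). *SERPINB5* had 92.2, 114, 33.0 and 38.5 CPM against 84.8, 139, 49.3 and 47.0 CPM and fell by 0.21 ± 0.068 with the block (adjusted p = 0.0165 against 0.804). Each of these 3 genes went the named way in 3 of 4 pairs. *PLAU* was higher in LRCs in 2 of 4 pairs, with a log2 fold change of 0.20 ± 0.12 with the block (adjusted p = 0.216). Within replicates 1 and 2 the log2 ratios of mean CPM were 0.51 for *PLAUR*, 0.29 for *PLAU*, -0.090 for *SERPINE2* and -0.12 for *SERPINB5*. Within replicates 3 and 4 they were 0.058, -0.033, -0.33 and -0.43, in the same order.

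HCT15 had 0.977% of genes called without the block and 21.3% with it. *PLAUR* had 130, 126, 84.9 and 75.9 CPM in HCT15-LRCs and 96.3, 106, 62.8 and 53.1 CPM in non-LRCs, and *PLAU* 49.9, 54.7, 32.1 and 24.01 CPM against 39.1, 39.7, 25.7 and 19.6 CPM. Both were higher in LRCs in all 4 pairs, while the ranges overlapped because replicates 1 and 2 again lay above replicates 3 and 4. With the block, *PLAUR* rose by 0.42 ± 0.064 (adjusted p = 0.000219 against 0.406), *PLAU* by 0.38 ± 0.070 (adjusted p = 0.00111 against 0.495) and *SERPINE2* by 0.25 ± 0.075 (adjusted p = 0.0276 against 0.841). *PLAT* had 13.9 to 18.4 CPM against 14.9 to 20.3 CPM, a log2 fold change of -0.096 ± 0.13 (adjusted p = 0.724), and *SERPINB5* 20.7 to 28.5 CPM against 20.7 to 25.7 CPM. Taken within replicates 1 and 2 and within replicates 3 and 4, the log2 ratios of mean CPM were 0.33 and 0.47 for *PLAUR*, 0.41 and 0.31 for *PLAU*, and 0.063 and 0.43 for *SERPINE2*.

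In the CCS1 lines, edgeR without a block and with the count minimum called no member and no gene from all 8 samples of a line. The 8 cycling genes summed to 814 to 1042 CPM in HT55-LRCs and 880 to 999 CPM in non-LRCs. In SW948 they summed to 1286 to 1504 CPM in LRCs and 1316 to 1409 CPM in non-LRCs, and the ranges overlapped in both lines. HT55 had 0.0% of genes called with and without the block, with 1005 genes at an unadjusted p under 0.05 without it. SW948, whose numbers were not read as pairs, had 0.0% called, with 2350 genes at an unadjusted p under 0.05. DESeq2 called 37 genes in HT55 and 244 in SW948. *PLAUR* had 62.1, 36.1, 53.6 and 58.2 CPM in HT55-LRCs and 27.2, 37.3, 37.7 and 33.7 CPM in non-LRCs, a log2 fold change of 0.64 ± 0.16 (adjusted p = 0.496). In SW948 it had 62.8, 49.9, 52.3 and 34.6 CPM against 36.2, 33.7, 34.9 and 36.7 CPM, a log2 fold change of 0.50 ± 0.14 (adjusted p = 0.159). In each line *PLAUR* was higher in LRCs for 3 of 4 replicate numbers. Without HT55-LRC replicate 2 or HT55 non-LRC replicate 2, *PLAUR* was called in HT55, beside 0.323% and 3.92% of all genes (43 and 521). Without SW948-LRC replicate 4 it was called in SW948, beside 14.5% of all genes (1956). DESeq2, and a replicate block that called 3.66% of genes, also called it in SW948 (adjusted p = 0.0408 and 0.0184). Without the count minimum, edgeR called *PLAUR* in HT55 (adjusted p = 0.0103) and in SW948 (5.39e-05), beside 0.388% and 3.6% of genes. *SERPINE2* had 503 to 757 CPM in HT55-LRCs against 508 to 799 CPM, and 419 to 516 CPM in SW948-LRCs against 381 to 449 CPM. *SERPINB5* had 95.7 to 126 CPM in HT55-LRCs against 122 to 129 CPM, and 14.99 to 17.3 CPM in SW948-LRCs against 14.05 to 16.03 CPM. *PLAU* in SW948 was higher in LRCs for 4 of 4 replicate numbers, which were not read as pairs there, at 3.86 ± 0.80 CPM against 2.89 ± 0.80 CPM (SD, n = 4, adjusted p = 0.375).

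Members under the count minimum in a line were compared by an exact two-sided permutation test of mean CPM, whose smallest p with 4 against 4 samples is 0.0286. Of 10 such comparisons, 2 reached it. *PLAT* in DLD1 had 0.713, 0.593, 0.603 and 0.550 CPM in LRCs against 0.133, 0.329, 0.196 and 0.391 CPM in non-LRCs, at 35 against 15 counts in all. *PLAU* in HT55 had 0.462 to 0.534 CPM in LRCs against 0.591 to 0.926 CPM, at 28 against 40 counts. Neither passed after Benjamini-Hochberg adjustment over the 10 exact tests (adjusted p = 0.143). With only 2 of 10 tests at the smallest possible p, neither could pass, so no conclusion is drawn from this. *SERPINB2* in SW948 had 3, 3, 7 and 0 counts in LRCs and 0 in all 4 non-LRC samples. Its LRC mean was 4.19 times the level of the 3 counts that 0 allows over the non-LRC group. That ratio takes no account of the spread in LRCs, and the exact permutation p was 0.143 (adjusted p = 0.476). These tests were chosen after seeing which members fell below the minimum.

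Across the 6 lines, with line as a covariate and all 48 sorted samples, none of the 5 tested members was called, where 22.9% of 16603 genes were. The log2 fold changes in LRCs were 0.22 ± 0.11 for *PLAUR* (adjusted p = 0.12), 0.23 ± 0.12 for *PLAU* (0.176), 0.26 ± 0.14 for *SERPINE2* (0.197), 0.11 ± 0.11 for *SERPINB5* (0.521) and -0.090 ± 0.14 for *PLAT* (0.707). With a replicate block in the 4 lines whose numbers pair, 27.3% of genes were called, and *PLAUR* (adjusted p = 0.03855), *PLAU* (0.027) and *SERPINE2* (0.0123) were among them with log2 fold changes of 0.22, 0.22 and 0.25. Of 24 comparisons by replicate number, LRCs were higher in 16 for *PLAUR*, 14 for *PLAU* and 18 for *SERPINE2*. Those of RKO and SW948 are included, where the numbers were not read as pairs. RKO was the line that went the other way for *PLAUR* and *PLAU*, for 4 of 4 replicate numbers each, and so did HT55 for *PLAU*. Without RKO, *PLAUR* was called (0.37 ± 0.11, adjusted p = 0.021), beside 14.6% of genes. Without DLD1, or without DLD1 and HCT15 together, *SERPINE2* was called, beside 17.3% and 16.3% of genes.

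A test of whether the LRC effect differed between the 6 lines called none of the 5 members without pairing, where 14.3% of genes were called, with adjusted p-values of 0.0599 for *PLAT*, 0.0805 for *PLAUR*, 0.256 for *SERPINB5*, 0.331 for *SERPINE2* and 0.358 for *PLAU*. With the block in the 4 lines whose numbers pair, 32.2% of genes and all 5 members were called, with adjusted p-values of 0.000191 for *PLAUR*, 0.015 for *PLAT*, 0.000367 for *PLAU*, 1.75e-07 for *SERPINE2* and 4.10e-05 for *SERPINB5*. DESeq2 without a block called *PLAUR* and *PLAT*, beside 20.5% of genes.

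Related genes were taken from 3 lists and are described by counts, to be read against the 12.2% of all genes that rose and the 10.7% that fell across the 6 lines. Of 20 other genes of the plasminogen system, 11 were tested across the 6 lines, 2 rose and 3 fell, with a median log2 fold change of 0.015, against 0.015 over all genes tested. *SERPINI1*, the gene of neuroserpin, rose by 0.72 ± 0.23 (adjusted p = 0.0221) and *LRP1*, which encodes a receptor that clears protease-serpin complexes, by 0.42 ± 0.11 (adjusted p = 0.00387). *F12*, the gene of coagulation factor XII, fell by 0.27 ± 0.053 (adjusted p = 0.000163) and *ENO1*, an enolase gene whose protein also binds plasminogen, by 0.22 ± 0.050 (adjusted p = 0.00108). The LRC effect differed between lines for *LRP1*, *SERPINI1* and *ENO1* (adjusted p = 0.000682, 0.0014 and 0.0192). In RKO, *LRP1* rose by 1.38 ± 0.12 and *SERPINI1* by 1.89 ± 0.33, whereas with the block in HCT15 *LRP1* fell by 0.43 ± 0.13 (adjusted p = 0.0297), and in HT55 *SERPINI1* was at -0.21 ± 0.35 (adjusted p = 0.922). Of 11 other clade B serpins, 4 were tested and 1 fell, *SERPINB6* (-0.12 ± 0.035, adjusted p = 0.0077), with a median of -0.0029. Of 14 membrane and secreted serine proteases and their Kunitz inhibitors, all 14 were tested, 5 rose and none fell, with a median of 0.15. Among them were *PRSS22* (0.72 ± 0.11, adjusted p = 2.87e-06), *TMPRSS3* (0.45 ± 0.10, adjusted p = 0.000788), *PRSS8* (0.22 ± 0.063, adjusted p = 0.00734), which encodes prostasin, and *SPINT1* (0.15 ± 0.039, adjusted p = 0.003), which encodes the matriptase inhibitor HAI-1. For the 5 tested members the median was 0.22.

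The controls labelled DLD1 asked what the dye and the time in culture do without a sort. On day 1, CFSE-labeled cells had more *PLAUR* than unlabeled cells, with 183, 197, 95.6 and 98.7 CPM against 58.8, 63.5, 50.5 and 50.4 CPM and no overlap. *PLAUR* rose by 1.41 ± 0.21 on the log2 scale (adjusted p = 0.000672), in a comparison that called 21.8% of 14518 genes. *PLAT* had 8.17, 8.66, 12.2 and 10.3 CPM against 15.04, 17.7, 16.5 and 15.7 CPM, again without overlap, and fell by 0.69 ± 0.14 (adjusted p = 0.00364). *PLAU* had 61.2, 68.4, 29.8 and 27.3 CPM against 29.3, 31.7, 28.5 and 25.2 CPM and rose by 0.75 ± 0.24 (adjusted p = 0.0337). *SERPINE2* had 68.7, 63.8, 29.1 and 30.4 CPM against 30.03, 31.9, 25.2 and 29.9 CPM, at 0.76 ± 0.27 (adjusted p = 0.0544, and DESeq2 called it). Both genes were high in CFSE replicates 1 and 2 and near the unlabeled level in replicates 3 and 4. Within replicates 1 and 2 the log2 ratio of mean CPM was 1.09 for *PLAU*, 1.10 for *SERPINE2*, 1.64 for *PLAUR* and -0.96 for *PLAT*. Within replicates 3 and 4 it was 0.088, 0.11, 0.94 and -0.52, in the same order. Without CFSE day-1 replicate 1 or 2, or without unlabeled day-1 replicate 1, 3 or 4, *PLAU* was not called.

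**Figure D4:**
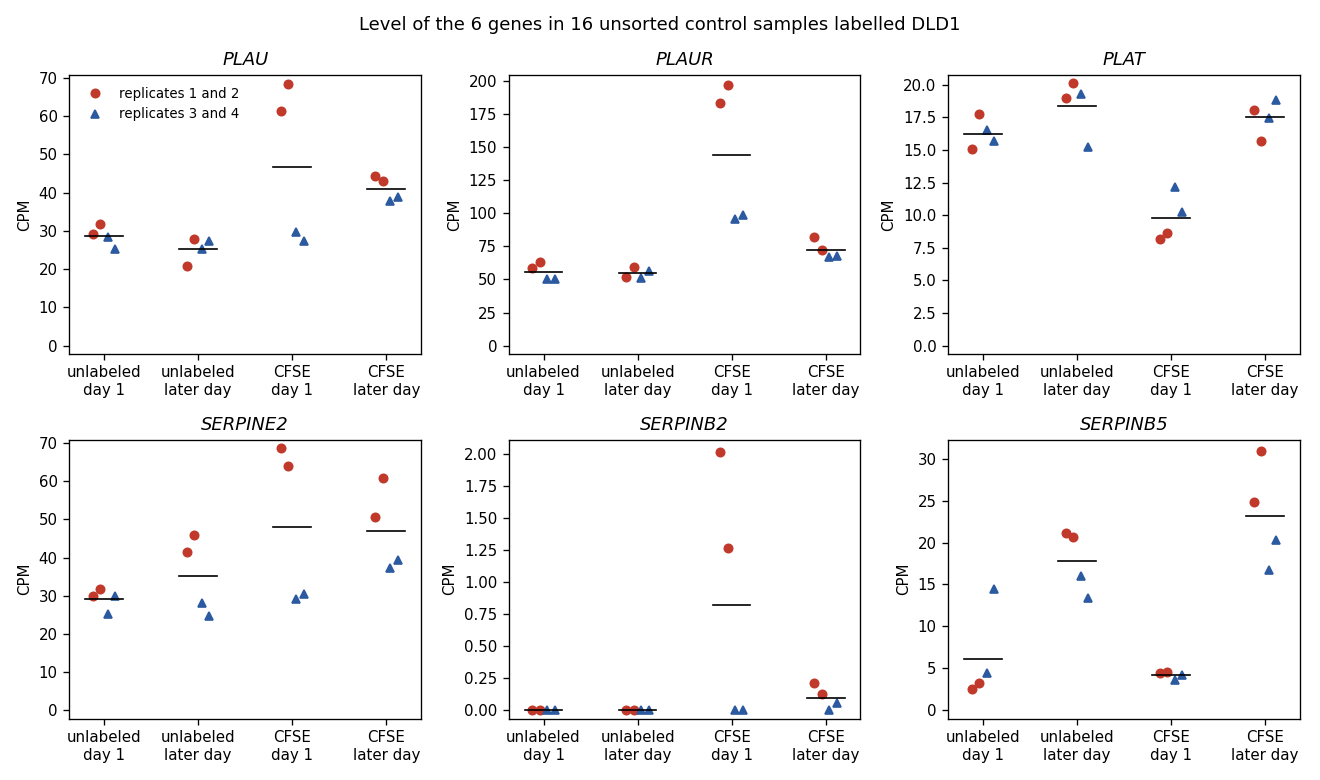
CPM (y axis) of the 6 genes in the 16 unsorted controls labelled DLD1 (x axis, dye and day), with replicates 1 and 2 as circles, replicates 3 and 4 as triangles and the mean of 4 samples as a short line. On day 1, CFSE replicates 1 and 2 had 183 and 197 CPM of *PLAUR*, and the 4 unlabeled samples had 50.4 to 63.5 CPM.

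*SERPINB2* showed its highest counts in the same 2 samples, with 32 and 20 counts in CFSE day-1 replicates 1 and 2 and 0 in replicates 3 and 4 and in all 8 unlabeled controls. These 2 samples held 52 of its 84 counts. Over all expressed genes, the 4 CFSE day-1 samples split the same way, with r of 0.996 and 0.998 within the 2 pairs of replicates and 0.981 between them. Reads outside genes made up 12.1% to 14.8% of reads in CFSE day-1 samples, 8.96% to 13.6% in unlabeled day-1 samples and 5.19% to 8.35% in the later-day samples. The part of these differences in the results on controls was not tested.

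On the later day, no member was called between CFSE-labeled and unlabeled cells, where 5.13% of genes were called. *PLAU* had 44.2, 43.1, 37.9 and 38.9 CPM against 20.8, 27.8, 25.3 and 27.4 CPM, without overlap, at 0.70 ± 0.24 (adjusted p = 0.0901), and DESeq2 called it. *PLAUR* had 66.8 to 82.4 CPM against 50.8 to 59.6 CPM, also without overlap (0.41 ± 0.20, adjusted p = 0.23). *PLAT* had 15.7 to 18.8 CPM against 15.2 to 20.2 CPM. Whether the dye effect differed between the days was tested directly, and no member was called, where 0.999% of genes were. *PLAUR* was nearest, at -1.001 ± 0.29 (adjusted p = 0.0936), and it was called without CFSE day-1 replicate 3 or 4 and by DESeq2.

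From day 1 to the later day, *SERPINB5* rose in both kinds of control. In CFSE-labeled cells it had 4.46, 4.61, 3.66 and 4.16 CPM on day 1 and 24.9, 30.8, 16.7 and 20.3 CPM later, a rise of 2.38 ± 0.40 on the log2 scale (adjusted p = 0.00047) where 39.3% of genes were called. In unlabeled cells it had 2.57, 3.21, 4.42 and 14.4 CPM on day 1 and 21.1, 20.6, 15.97 and 13.4 CPM later, a rise of 1.49 ± 0.38 (adjusted p = 0.0147) where 25.5% of genes were called. The ranges overlapped there through unlabeled day-1 replicate 4. Over all expressed genes that library had an r of 0.994 with sorted HCT15 non-LRCs, within the 0.986 to 0.995 of the unlabeled later-day samples, whereas the other 3 unlabeled day-1 samples had 0.974 to 0.977. Without that sample the rise was 2.26 ± 0.24 and 6077 in place of 3695 genes were called, and without unlabeled day-1 replicate 1, 2 or 3 it was not called. *PLAUR* fell with time in CFSE-labeled cells, from the day-1 values above to 82.4, 72.4, 66.8 and 67.8 CPM, by 1.07 ± 0.20 (adjusted p = 0.00104), and *PLAT* rose to 18.1, 15.7, 17.5 and 18.8 CPM, by 0.76 ± 0.14 (adjusted p = 0.00069). In unlabeled cells *PLAUR* had 50.4 to 63.5 CPM on day 1 and 50.8 to 59.6 CPM later, a log2 fold change of -0.072 ± 0.20 (adjusted p = 0.816), and *PLAT* one of 0.14 ± 0.13 (adjusted p = 0.451). *PLAU* and *SERPINE2* were called with time in neither kind of control. The comparisons by day and by dye share samples, so they are not independent of each other.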

How the data were processed

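RNA of 64 samples was sequenced as single-end reads. Per the labels and the study's methods, the authors aligned reads to hg19 with TopHat and counted them per gene with HTSeq, and they deposited raw counts for 54127 genes. Versions and the strand setting are not given in the sources used here. Rows that name no gene, such as reads outside genes (5.19% to 14.8% of reads), were left out.

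Genes had to reach 10 counts in 4 or more of the samples fitted, and were tested with edgeR 4.0.16 in R 4.3.3 (quasi-likelihood, TMM), and p-values were adjusted by Benjamini-Hochberg over all genes tested, with calls at 0.05. DESeq2 1.42.0 was an alternative, and the code was tested on simulated data. Sorted samples were compared within and across lines and controls by dye and day. Depth was 12237225 to 20913455 reads on genes. Limits from counts cover counting error only. No 2 of the 96 replicate pairs within groups were identical.

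The members and lists were chosen with earlier results of these data known. The members are named in every comparison, up to 4 called genes per list by absolute log2 fold change, and 3 most alike genes per member. Replicate numbers were read as pairs where all 4 same-numbered samples had correlated deviations above 0.1. This held in HT55, SW48, DLD1 and HCT15 (lowest 0.19, highest 0.61) and between both CFSE control groups (0.16 to 0.29), where the block changed no call. The study's methods call the 4 replicates biological, and the labels do not say whether they were separate cultures, so p-values measure the spread between these samples. The block in 4 lines, the fit without DLD1 and HCT15, the splits of replicates, the exact tests and the union of exons as length were chosen after seeing the data. The values of 1 listed gene are not reported here.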

Additional observations from a re-analysis of the deposited data

Results flagged for a closer look

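*SERPINB5* in the unlabeled day-1 controls labelled DLD1 had 14.4 CPM in replicate 4, far from the 2.57 to 4.42 CPM of the other 3 samples. It was the 1 such sample in 76 groups of 4 checked for the members, where chance gives about 1 in 20. The whole library of that sample also stood apart from the other 3, as its correlation with sorted HCT15 non-LRCs (0.994 against 0.974 to 0.977), reads outside genes (8.96% against 10.7% to 13.6%) and mitochondrial share (3.09% against 4.89% to 5.45%) show. Their part in the *SERPINB5* value was not tested.

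The LRC effect differed between the 6 lines for all 5 tested members when the replicate block was used in the 4 lines whose numbers pair, by a test of the difference itself in edgeR. The adjusted p was 0.000191 for *PLAUR*, 0.015 for *PLAT*, 0.000367 for *PLAU*, 1.75e-07 for *SERPINE2* and 4.10e-05 for *SERPINB5*. In the same fit 32.2% of the 16603 genes tested were called. Without the block none of the members passed.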

How the results depend on the processing

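Of 1259 recomputed member values, 1138 kept direction and call, 52 gained the call, 27 lost it, 34 changed sign and 8 moved. For those that did not stay the cause was not tested. Percentages in parentheses are the share of all genes called in the same fit. Across the 6 lines 0 members were called (22.9%). The replicate block gave 2 when used in all lines (25.5%) and 3 in the 4 lines whose numbers pair (27.3%). The count was 1 without RKO (14.6%), without DLD1 (17.3%) or without DLD1 and HCT15 (16.3%). The line difference in the LRC effect called 0 (14.3%). It called 5 with the block in all lines (33.6%) or in 4 (32.2%), 2 by DESeq2 (20.5%) and 3 without the count minimum (7.86%). The block gave 3 in DLD1 (33.8%), 3 in HCT15 (21.3%) and 1 in SW948 (3.66%), where the numbers were not read as pairs. In SW948 DESeq2 called 1 (1.78%), and leaving out the count minimum gave 2 there (3.6%) and 1 in HT55 (0.388%). Leaving it out also gave 5 for dye on day 1 (10%), 1 for dye on the later day (3.41%) and 1 for dye by day (1.48%). DESeq2 called 1 for dye on the later day (10.5%) and 2 for dye by day (4.29%). One fit of all 48 samples called 1 in RKO (26.4%) and 0 in SW48 (2.93%). In the other control comparisons the block changed 1 call, *SERPINE2* for dye on day 1 (adjusted p = 0.0117), beside 26.2% of genes.

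Leaving out 1 sample gave 0 to 1 members in HT55 (0% to 3.92% of all genes), SW948 (0% to 14.5%) and time in unlabeled controls (6.68% to 42.1%). It gave 1 to 2 in SW48 (0.161% to 1.39%) and 0 to 2 for dye by day (0.111% to 6.09%). For dye on day 1 it gave 2 to 4 (9.41% to 25.7%), and in RKO 3 to 4 (34% to 40.5%). Leaving out 1 replicate number from all lines gave 0 to 1 for the line difference (3.2% to 17.4%). In HT55 against SW948 it gave 3 to 4 (66.5% to 72.1%). Signs changed in values that were not called. Across lines *PLAT* was 0.37 on group means and 0.18 without RKO, and *SERPINB5* -0.045 without SW48. *PLAUR* was 0.044 in SW48 with the block and 0.070 in HT55 against SW948 with LRCs, and *PLAU* was 0.027 for dye by day without the count minimum. Without 1 replicate number in all lines, *PLAT* ran from -0.20 to 0.026 across lines and *PLAUR* from -0.12 to 0.040 in HT55 against SW948. Without 1 sample, *PLAT* ran from -0.17 to 0.0077 in HCT15. *SERPINE2* ran from -0.13 to 0.10 in HT55, -0.48 to 0.24 in DLD1, -0.046 to 0.45 in HCT15 and -0.30 to 0.12 with time in CFSE controls. *PLAUR* ran from -0.20 to 0.19 in SW48. *PLAU* ran from -0.0093 to 0.54 in DLD1 and -0.25 to 0.16 for dye by day. *SERPINB5* ran from -0.53 to 0.22 in DLD1, -0.0080 to 0.15 in HCT15 and -0.75 to 0.30 for dye on day 1.

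Genes called went from 0 to 37 (DESeq2), 102 (no count minimum) and 106 (all 48 samples) in HT55, and from 0 to 501 (block), 244, 973 and 389 in SW948. They went from 105 to 1279 (block), 361, 285 and 486 in SW48, from 137 to 2987, 531, 347 and 697 in HCT15, and from 1978 to 4591 (block) and 646 (all 48 samples) in DLD1. Across lines they went from 3803 to 2378 without RKO, for the line difference from 2380 to 5584 with the block in all lines, for dye on the later day from 745 to 1511 (block) and 1521 (DESeq2), and for dye by day from 145 to 623 (DESeq2), 454 (no count minimum), 89 (DESeq2 size factors) and 85 (no TMM). Depth limits *SERPINB2* in all sorted samples, *PLAT* in 4 lines, *PLAU* in HT55 and *SERPINB5* in RKO, with 0 to 12 counts per sample.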
